A study of Homo sapiens with 12 samples.

Results

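The nucleolar ribosome biogenesis genes are a set of 39 named human genes that encode RNA polymerase I proteins, small nucleolar ribonucleoprotein (snoRNP) proteins and ribosome assembly factors. They were picked by gene symbol in the annotation of an expression array, and 36 of the 39 were measured, among 18417 genes measured in all. NOP56, a snoRNP core protein, and PPAN, a large-subunit assembly factor, were found only on probe sets that carry several gene symbols, and GNL3, a nucleolar GTP-binding protein, on no named probe set, so these 3 have no value here. By role, 6 of the measured genes belong to RNA polymerase I transcription, 3 to box C/D snoRNPs, 4 to box H/ACA snoRNPs, 10 to assembly of the small subunit, 9 to assembly of the large subunit, and 4 are nucleolar scaffold, helicase or other proteins. The samples were SP (side population) and MP (main population) cells of 4 human anaplastic large cell lymphoma (ALCL) lines, all grown to log phase, stained with Hoechst dye and sorted by flow cytometry with no other treatment. SUDHL-1 was represented by 6 arrays, 3 of SP and 3 of MP cells, and each of DEL, Karpas299 and SUPM2 by 1 array of either population, which makes 12 arrays. Side population cells are those that retain little of the dye, and the main population is the stained remainder. The labels do not say that the SUDHL-1 replicates came from separate cultures, so p-values reflect only how far these arrays scatter, and that scatter may be technical. In tests among DEL, Karpas299 and SUPM2, the SP and MP arrays of a line took the place of replicates. The SE and p-values there rest on spread between populations of a line and not between cultures. Each line is a single established culture, so a difference between lines holds for these 4 lines.

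Ribosomes are assembled in the nucleolus, where RNA polymerase I transcribes the long ribosomal RNA precursor. Box C/D snoRNPs guide methylation of ribose in that precursor, box H/ACA snoRNPs guide the conversion of uridine to pseudouridine, and a large set of assembly factors fold, cut and export the precursors of the small and the large subunit. Dividing cells such as lymphoma lines make ribosomes at a high rate, and many genes of this set are known targets of the transcription factor MYC, which binds the E-box CACGTG.

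Promoter windows of RefSeq (build GRCh38.p14), from 250 bases before to 50 bases after a gene's start, were given for 32 of the 39 genes. The letters CACGTG, a palindrome that reads alike on both strands, were found in the windows of 13 of these 32 genes (40.6%), against 1727 of 15842 protein-coding genes (10.9%). Among 121 other ribosome biogenesis genes with a window, 37 (30.6%) held the letters, and among 62 cytosolic ribosomal protein genes 4 (6.45%). Part of the window is shown for 4 genes that separated lines in the comparisons that follow (LYAR, UTP20 and TSR1 higher in DEL than in SUPM2, DDX21 higher in SUDHL-1 than in the other lines), each as the 100 bases before the start on the gene's own strand. LYAR, DDX21 and UTP20 hold the E-box, in capitals, and TSR1 has none of these letters in its whole window. The stretches lie at chr4:4290022-4290121 on the minus strand for LYAR, chr12:101280005-101280104 on the plus strand for UTP20, chr10:68956547-68956646 on the plus strand for DDX21 and chr17:2336458-2336557 on the minus strand for TSR1.
LYAR: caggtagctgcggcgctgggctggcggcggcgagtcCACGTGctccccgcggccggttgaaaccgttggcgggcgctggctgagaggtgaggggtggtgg
UTP20: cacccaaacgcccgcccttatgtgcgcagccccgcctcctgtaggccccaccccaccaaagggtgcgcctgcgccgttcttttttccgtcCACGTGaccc
DDX21: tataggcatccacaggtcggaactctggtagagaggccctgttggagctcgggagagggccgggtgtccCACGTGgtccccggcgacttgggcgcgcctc
TSR1: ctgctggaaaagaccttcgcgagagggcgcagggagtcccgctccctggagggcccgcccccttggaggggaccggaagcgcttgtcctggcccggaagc
The E-box begins 64 bases before the start in LYAR, 10 in UTP20 and 31 in DDX21. A match of letters is a description of the sequence and not a binding site measured here.

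All values are log2 signals as the authors deposited them, so a difference of 1 is a doubling of the signal, and a level is never compared between genes. The median over all probe sets ranged from 4.83 to 5.0 on the arrays of SUDHL-1, against a range of 5.24 to 5.35 elsewhere, so comparisons of SUDHL-1 with the other lines were made after each array was centred on the median of its genes. Within SUDHL-1, arrays correlated at 0.974 to 0.984 among SP replicates, at 0.973 to 0.984 among MP replicates and at 0.965 to 0.986 between SP and MP, over all genes. Of 13 measured markers of ALCL and the T lineage, 6 (IL2RA, GZMB, PRF1, TIA1, BATF3 and PTPRC) were in the top 25% of signals on all 12 arrays, while CD2 and CD3E, T-cell surface proteins, were in the lowest 25% on all 6 SUDHL-1 arrays. Of 28 measured markers of B, myeloid, erythroid, platelet, stromal and epithelial cells, 0 were in the top 25% on all arrays and 5 were in the lowest 25% on all of them. By line, CSF1R, S100A9 and KRT18 were in the top 25% on both DEL arrays, CSF1R on both Karpas299 arrays, CSF1R and KRT18 on both SUPM2 arrays, and 0 on all 6 SUDHL-1 arrays.

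As deposited, the mean level of the 36 genes was 9.01 ± 0.28 in SUDHL-1 SP cells and 9.06 ± 0.08 in SUDHL-1 MP cells (SD, n = 3 each). DEL had 8.52 in SP and 8.80 in MP cells, Karpas299 8.54 in SP and 8.38 in MP cells, and SUPM2 7.45 in SP and 7.40 in MP cells. The 2 SUPM2 arrays were the lowest of the 12 and the SUDHL-1 arrays the highest, apart from SUDHL-1 SP replicate 3 at 8.71, which lay below the DEL MP array. Array by array, SP and MP cells of 1 line stood nearer to each other than to SUPM2 in SUDHL-1, DEL and Karpas299. After centring, SUPM2 had the lowest mean of the 4 lines for 34 of the 36 genes, where it was the lowest line for 23.6% of all genes. The exceptions were FBL and WDR12, both lowest in DEL. Some of the 34 were close calls: as deposited, POLR1C and IMP3 were at 0.0 and -0.01 in DEL minus SUPM2. BOP1, a large-subunit factor, counts on the probe set used, while its other probe set was highest in SUPM2 as deposited (7.76). The order also depends on centring: as deposited, NHP2 had a mean of 8.79 in SUDHL-1 and 9.15 in SUPM2. SUDHL-1 had the highest mean for 31 of the 36 (45.1% of all genes).

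**Figure D1:**
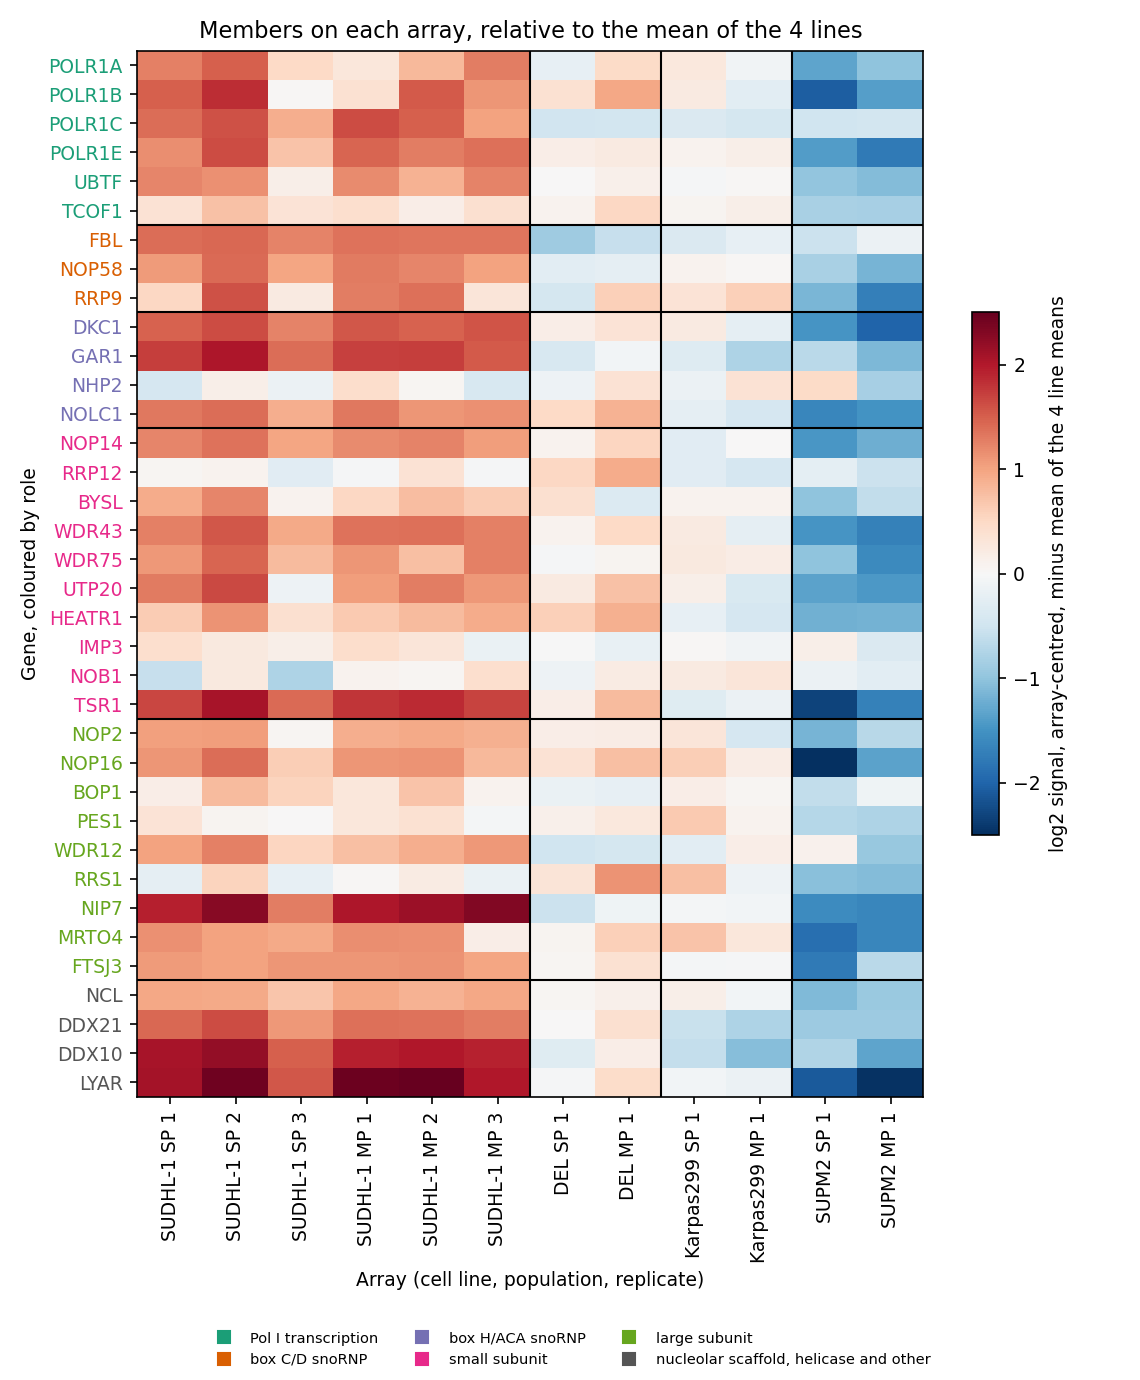
Centred log2 signal of each of the 36 measured genes (rows, grouped by role) on each of the 12 arrays (columns), minus the mean of the 4 line means of that gene. Red is above and blue below that mean; the 2 SUPM2 columns are blue for most genes and the 6 SUDHL-1 columns red, while in the FBL and WDR12 rows DEL is the lowest line.

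The first comparison asked how the set differs among DEL, Karpas299 and SUPM2, whose arrays had like medians. Genes of 5 of the 6 roles were higher in DEL than in SUPM2, up to 5.73-fold for NOP16, with 0 of 3 box C/D genes called; genes of all 6 roles were higher in Karpas299 than in SUPM2, and no gene of the set passed between DEL and Karpas299. With population as a covariate, 16 of the 36 genes (44.4%) differed among the 3 lines by limma's F-test at an adjusted p under 0.05, against 7.5% of all genes. In DEL minus SUPM2, 17 genes were higher and 0 lower past the threshold (all genes: 3.25% higher and 1.47% lower), with 33 of 36 values above 0 and a median of 1.19 against -0.09 for all genes. In Karpas299 minus SUPM2, 15 were higher and 0 lower (all genes: 4.29% higher and 2.52% lower), with 36 of 36 above 0 and a median of 1.06 against -0.05. Both comparisons use the same 2 SUPM2 arrays. Among the 8330 genes with a mean signal at or above the lowest of the set (5.86), 5.5% were called higher in DEL and 7.71% in Karpas299. The medians over these genes were 0.11 in DEL minus SUPM2 and 0.085 in Karpas299 minus SUPM2. In 27 of the 36 genes all 4 DEL and Karpas299 arrays lay above both SUPM2 arrays (12.9% of all genes), and in 0 genes all 4 lay below (17.3% of all genes). Less RNA of these genes per cell and fewer cells that express them cannot be told apart in bulk RNA. Of the 28 markers of other cell types, 1 was called in DEL minus SUPM2 (all genes: 4.72%) and 1 in Karpas299 minus SUPM2 (all genes: 6.81%). In DEL minus SUPM2 it was S100A8, a myeloid calcium-binding protein (3.92, adjusted p = 0.0457). S100A8 had 6.26 and 8.68 in SP and MP cells of DEL and 3.83 and 3.27 in SUPM2. In Karpas299 minus SUPM2 it was PAX5, a B-cell transcription factor (1.45, adjusted p = 0.0446). The mean signal of the 7 myeloid markers was 5.31 to 5.95 in DEL and 5.15 to 5.38 in SUPM2, with LYZ and MPO in the lowest 25% on all arrays, and that of the 6 B-cell markers was 4.97 to 5.11 in Karpas299 and 4.80 to 5.08 in SUPM2, with MS4A1 in the lowest 25%. Of the 13 ALCL and T-lineage markers, CD2, CD4 and GZMB were lower in DEL than in SUPM2, and in Karpas299 CD5 and TNFRSF8 were higher and CD2 lower. The part of these markers in the result was not tested.

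Within RNA polymerase I transcription, 4 of 6 genes were called higher in DEL than in SUPM2 and 3 of 6 in Karpas299 than in SUPM2. POLR1B, a core subunit of the enzyme, had 6.90 in SP and 7.45 in MP cells of DEL, 6.72 and 6.21 in SP and MP cells of Karpas299, and 4.46 and 5.12 in SP and MP cells of SUPM2. The SUPM2 values were the lowest of the 12 arrays and the SP value lay just below the lower quartile of its array, 4.48. The difference was 2.38 ± 0.33 (SE) in DEL minus SUPM2 (adjusted p = 0.0262) and 1.67 ± 0.33 in Karpas299 minus SUPM2 (adjusted p = 0.0476). POLR1E, another subunit, had 8.76 and 8.78 in DEL SP and MP cells, 8.66 and 8.71 in Karpas299 SP and MP cells, and 7.20 and 6.81 in SUPM2 SP and MP cells. All 4 arrays of DEL and Karpas299 lay within a narrow range above SUPM2, with differences of 1.76 ± 0.20 (adjusted p = 0.0174) and 1.68 ± 0.20 (adjusted p = 0.0162). UBTF, which binds the ribosomal DNA promoter and recruits the enzyme, had 9.04 and 9.14 in DEL, 8.99 and 9.03 in Karpas299, and 8.05 and 7.95 in SUPM2, SP before MP in each line. It was 1.09 ± 0.18 higher in DEL (adjusted p = 0.0386) and 1.01 ± 0.18 higher in Karpas299 (adjusted p = 0.0379) than in SUPM2. TCOF1, the treacle protein that acts with UBTF, was 1.11 ± 0.20 higher in DEL than in SUPM2 (adjusted p = 0.0474), with a value of 0.90 ± 0.20 in Karpas299 minus SUPM2 (adjusted p = 0.0659). POLR1A, the largest subunit, had 6.90 and 7.56 in DEL, 7.35 and 6.99 in Karpas299, and 5.79 and 6.08 in SUPM2. Its groups did not overlap, yet it missed the threshold in both comparisons (adjusted p = 0.0753 and 0.0694). POLR1C, a subunit shared with RNA polymerase III, stood apart from the others of this role: its 6 values in the 3 lines lay between 8.10 and 8.22.

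Among the snoRNP proteins, DKC1 and NOLC1 passed in both comparisons and NOP58 in 1. DKC1, the pseudouridine synthase, had 9.98 in SP and 10.13 in MP cells of DEL, 10.02 and 9.56 in SP and MP cells of Karpas299, and 8.36 and 7.81 in SP and MP cells of SUPM2. It was 1.97 ± 0.24 higher in DEL (adjusted p = 0.0201) and 1.70 ± 0.24 higher in Karpas299 (adjusted p = 0.0236) than in SUPM2. NOLC1, a chaperone of snoRNPs also called Nopp140, had 10.70 and 11.03 in DEL, 9.95 and 9.75 in Karpas299, and 8.56 and 8.70 in SUPM2. The 3 lines formed 3 separate levels for this gene, 2.23 ± 0.21 above SUPM2 in DEL (adjusted p = 0.0101) and 1.22 ± 0.21 above it in Karpas299 (adjusted p = 0.0347). GAR1 and NHP2, the small core proteins of the class, did not pass the threshold in either comparison, with values of 0.65 and 0.28 in DEL minus SUPM2 and 0.34 and 0.25 in Karpas299 minus SUPM2. NHP2, on the one used of its 2 probe sets, had the widest gap of the set between populations of 1 line, 9.81 in SP and 8.48 in MP cells of SUPM2. Of the 3 box C/D proteins, NOP58, a core protein, had 10.10 and 10.11 in DEL, 10.43 and 10.36 in Karpas299, and 9.55 and 9.19 in SUPM2. It passed in Karpas299 minus SUPM2 (1.02 ± 0.20, adjusted p = 0.0441) and not in DEL minus SUPM2 (0.73 ± 0.20, adjusted p = 0.115). FBL, the methyltransferase of the particle, had 10.78 and 11.05 in DEL, 11.29 and 11.44 in Karpas299, and 11.14 and 11.51 in SUPM2, and both DEL arrays lay below the other 4. Its value was -0.41 ± 0.18 in DEL minus SUPM2, opposite in sign to most of the set, and did not pass (adjusted p = 0.291). RRP9, a protein of the U3 snoRNP that starts processing of the small subunit, was at 1.48 ± 0.38 in DEL minus SUPM2 (adjusted p = 0.106) and at 1.86 ± 0.38 in Karpas299 minus SUPM2 (adjusted p = 0.0526).

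Of the 10 small-subunit factors, 6 were called higher in DEL and 4 in Karpas299 than in SUPM2. TSR1, a late factor that keeps the immature small subunit from initiating translation, had 8.30 in SP and 8.90 in MP cells of DEL, 7.81 and 7.95 in SP and MP cells of Karpas299, and 5.83 and 6.42 in SP and MP cells of SUPM2. It was 5.55-fold higher in DEL than in SUPM2 (2.47 ± 0.21 on the log2 scale, adjusted p = 0.00796, the smallest of the set) and 3.38-fold higher in Karpas299 (1.76 ± 0.21, adjusted p = 0.0157). NOP14 and the U3-associated factors HEATR1, WDR43 and WDR75, which also promote transcription of ribosomal DNA, passed in DEL with differences of 1.65, 1.92, 1.86 and 1.30, and UTP20, a large protein of the small-subunit processome, with 1.85 ± 0.28 (adjusted p = 0.0333). UTP20 had 7.49 and 7.97 in DEL, 7.40 and 6.86 in Karpas299, and 5.93 and 5.82 in SUPM2, SP before MP. In Karpas299 it had a value of 1.25 ± 0.28 over SUPM2, which missed the threshold (adjusted p = 0.0663), as did HEATR1 at 0.85 ± 0.21 (adjusted p = 0.0781), whereas NOP14, WDR43 and WDR75 passed. The 2 UTP20 values of each of these lines lay above both SUPM2 values. NOB1, the endonuclease that makes the final cut of the small-subunit RNA, had 8.53 and 8.83 in DEL, 8.86 and 8.94 in Karpas299, and 8.53 and 8.38 in SUPM2. Its values in DEL minus SUPM2 (0.23 ± 0.20) and in Karpas299 minus SUPM2 (0.45 ± 0.20) were small and did not pass. IMP3, a U3 protein, was at -0.01 and 0.04 in the same 2 comparisons, with no separation of the lines. RRP12, an export factor, was at 1.10 ± 0.23 in DEL minus SUPM2 (adjusted p = 0.0673) and at 0.02 ± 0.23 in Karpas299 minus SUPM2.

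Of the 9 large-subunit factors, NOP16, NIP7 and MRTO4 passed in both comparisons and the other 6 in neither. NOP16, a nucleolar assembly protein, had 9.97 and 10.34 in DEL SP and MP cells, 10.21 and 9.76 in Karpas299 SP and MP cells, and 7.0 and 8.26 in SUPM2 SP and MP cells, with differences of 2.52 ± 0.41 (adjusted p = 0.0372) and 2.35 ± 0.41 (adjusted p = 0.0357). MRTO4, which resembles the ribosomal stalk protein and is exchanged for it, had 8.06 and 8.55 in DEL, 8.68 and 8.24 in Karpas299, and 6.11 and 6.36 in SUPM2. Both genes had their SUPM2 arrays below every DEL and Karpas299 array by more than the SP and MP arrays of any of these lines differed. MRTO4 was 2.07 ± 0.27 higher in DEL (adjusted p = 0.0239) and 2.22 ± 0.27 higher in Karpas299 (adjusted p = 0.0166). NIP7, a factor needed for rRNA processing, was 1.27 ± 0.21 higher in DEL (adjusted p = 0.0391) and 1.52 ± 0.21 higher in Karpas299 (adjusted p = 0.0227). The 3 proteins PES1, BOP1 and WDR12 form the PeBoW complex, and none of them passed. PES1 had 7.98 and 8.09 in DEL, 8.47 and 7.90 in Karpas299, and 7.13 and 7.06 in SUPM2, with no overlap and adjusted p of 0.0968 and 0.0578. BOP1 had 7.38 and 7.31 in DEL, 7.68 and 7.57 in Karpas299, and 6.94 and 7.43 in SUPM2. Its probe sets gave opposite signs for DEL minus SUPM2, 0.16 for the one used and -0.72 for the other, so its direction is uncertain. WDR12 had 9.72 in SP and 8.66 in MP cells of SUPM2, a gap wider than its differences between lines.

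Among the remaining proteins, LYAR and NCL passed in both comparisons. LYAR, a nucleolar zinc finger protein that promotes ribosomal RNA processing, had 7.93 and 8.38 in DEL SP and MP cells, 7.87 and 7.77 in Karpas299 SP and MP cells, and 5.86 and 5.47 in SUPM2 SP and MP cells. It was 5.62-fold higher in DEL (2.49 ± 0.25 on the log2 scale, adjusted p = 0.0128) and 4.46-fold higher in Karpas299 (2.16 ± 0.25, adjusted p = 0.0152) than in SUPM2. NCL, nucleolin, the abundant RNA-binding scaffold of the nucleolus, had 12.02 and 12.08 in DEL, 12.10 and 11.88 in Karpas299, and 10.88 and 11.04 in SUPM2. It was about 2-fold higher in both lines, by 1.09 ± 0.19 in DEL (adjusted p = 0.0456) and by 1.03 ± 0.19 in Karpas299 (adjusted p = 0.0434). The helicases DDX21 and DDX10 did not pass: DDX21, which binds ribosomal DNA and RNA, was at 1.11 ± 0.22 in DEL minus SUPM2 (adjusted p = 0.0568) and at 0.22 ± 0.22 in Karpas299 minus SUPM2 (adjusted p = 0.636).

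**Figure D2:**
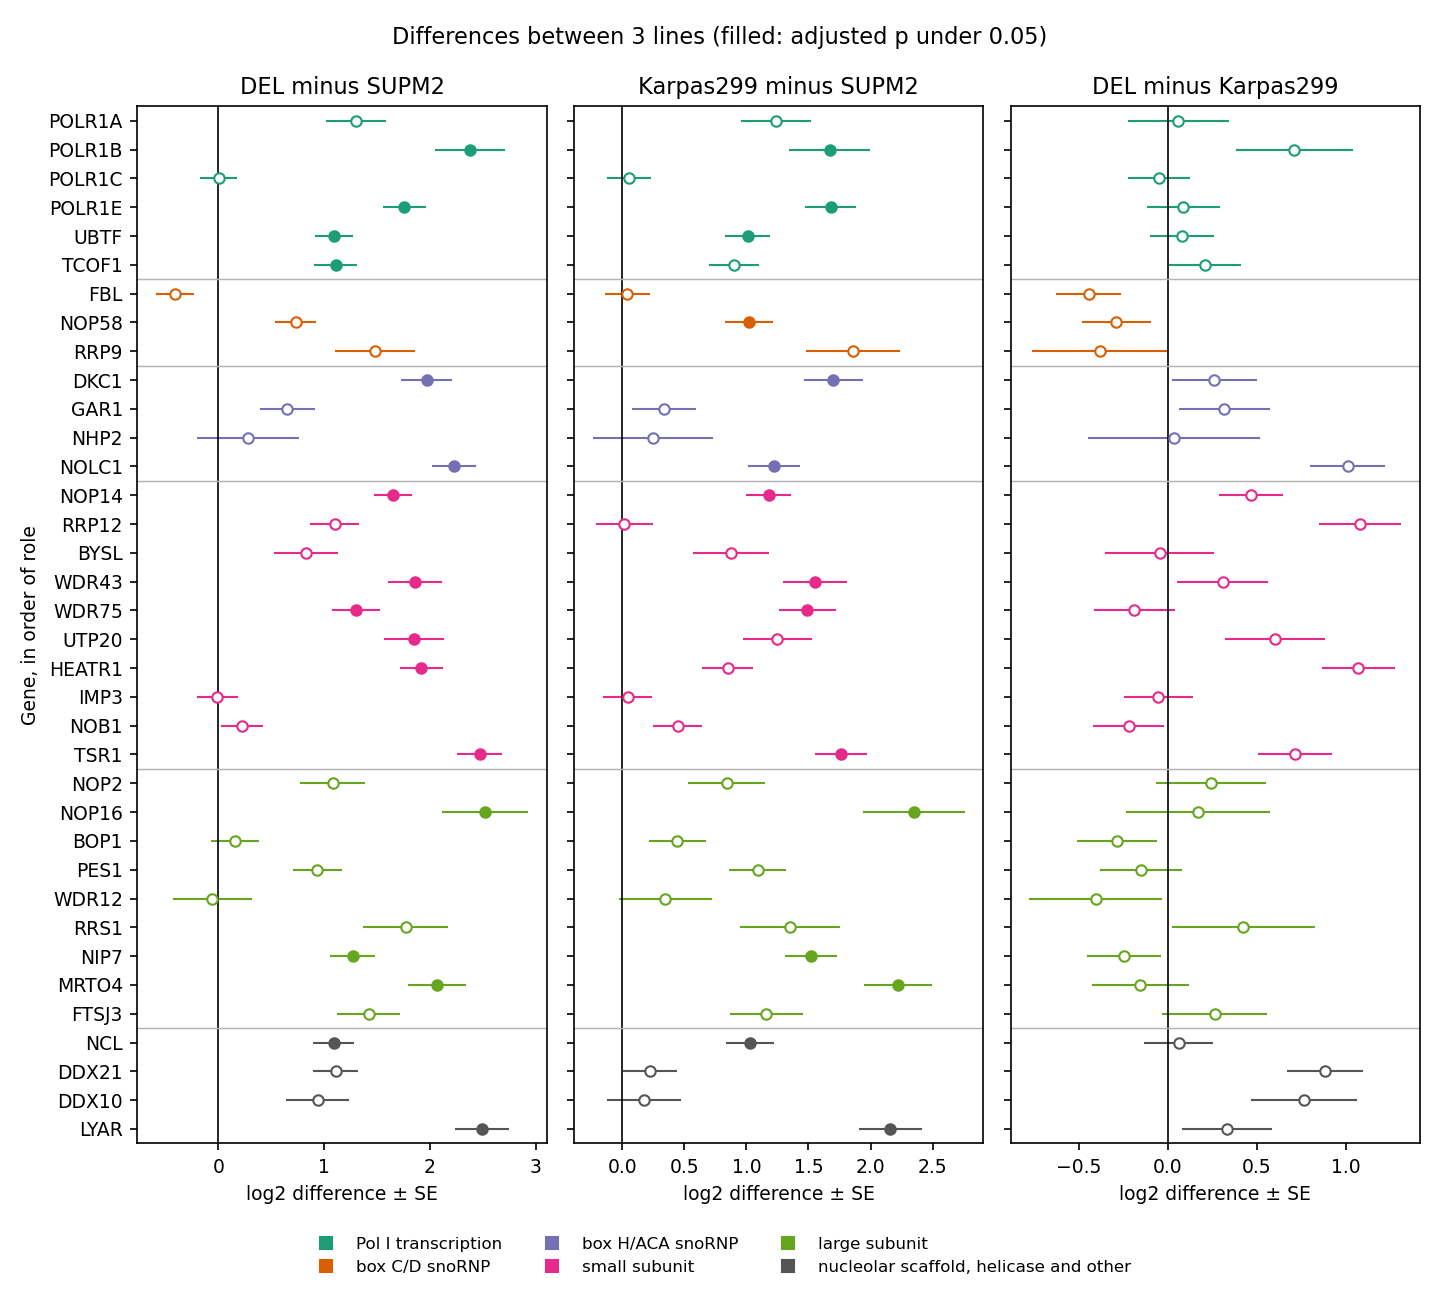
Log2 difference between lines (horizontal axis, limma estimate ± SE) of each of the 36 genes, in order of role, for DEL minus SUPM2, Karpas299 minus SUPM2 and DEL minus Karpas299, each with its own axis range. Filled points have an adjusted p under 0.05, with 17, 15 and 0 of them in the 3 panels, and the values of the first and second panel lie mostly to the right of 0.

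These calls rest on 1 SP and 1 MP array a line. Fewer genes of the set passed wherever 1 of the 6 arrays was left out, and in some of these fits no gene of the set passed. A line then has 1 array, so only sizes are given here. Calls over all genes fell too. In some fits they fell by a smaller share than in the set, as in Karpas299 minus SUPM2 and in the F-test without either SUPM2 array. The medians over the 36 genes were 1.03 to 1.41 in DEL minus SUPM2 and 0.85 to 1.25 in Karpas299 minus SUPM2.

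DEL and Karpas299 themselves differed in 0 of the 36 genes (2.41% of all genes passed), with a median of 0.13 and 23 of 36 values above 0. The values with the smallest p were those of HEATR1 (1.07 ± 0.21, adjusted p = 0.0746), NOLC1 (1.01 ± 0.21, adjusted p = 0.0877), RRP12 (1.08 ± 0.23, adjusted p = 0.0936), DDX21 (0.88 ± 0.22, adjusted p = 0.122) and TSR1 (0.72 ± 0.21, adjusted p = 0.181) in the direction of DEL. RRP12, for example, had 7.14 in SP and 7.51 in MP cells of DEL, against 6.31 and 6.18 in SP and MP cells of Karpas299. In the other direction stood FBL (-0.45 ± 0.18, adjusted p = 0.329), NOP58 (-0.29), BOP1 (-0.29), NIP7 (-0.25) and NOB1 (-0.22), and all 3 box C/D proteins had values below 0. Both DEL arrays lay above both Karpas299 arrays in 13 genes (21.3% of all genes) and below them in 7 (27.7% of all genes). With all 12 arrays sharing 1 estimate of the spread, HEATR1, NOLC1, RRP12 and DDX21 passed, a count of 4. Calls over all 18417 genes rose in that fit too, to 958 from 444. The median changed sign, to -0.037, without the DEL MP array.

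Beyond the listed set, 134 other ribosome biogenesis genes, including further Pol I, snoRNP, subunit assembly and rRNA exosome genes, were measured. Of these, 30 were higher and 0 lower in DEL than in SUPM2 (all genes: 3.25% and 1.47%), with a median of 0.85. In Karpas299 22 were higher and 2 lower than in SUPM2 (all genes: 4.29% and 2.52%), with a median of 0.76. The groups were not tested against each other. In DEL minus SUPM2, 11 of 45 small-subunit and 14 of 48 large-subunit genes were called (medians 0.97 and 1.01). Of the Pol I genes 1 of 12 and of the exosome genes 0 of 13 were called there (medians 0.38 and 0.52). In Karpas299 minus SUPM2 the medians of these 4 groups were, in the same order, 0.75, 0.83, 0.40 and 0.79. The 7 other nucleolar genes had a median of 0.77 in DEL minus SUPM2, with 6 above 0. In Karpas299 minus SUPM2 their median was -0.19, with 3 above 0. Examples in DEL minus SUPM2 were TAF1A, a subunit of the Pol I promoter factor SL1 (2.52, adjusted p = 0.00733), UTP4, a small-subunit processome protein (2.21, adjusted p = 0.0139), NOC3L, a large-subunit factor (1.67, adjusted p = 0.015), and RUVBL1, a helicase of snoRNP assembly (1.54, adjusted p = 0.0193). The 2 genes lower in Karpas299 were SIRT7, a deacetylase that acts on Pol I (-1.13, adjusted p = 0.0333), and EXOSC1, an exosome subunit (-1.32, adjusted p = 0.0332). Of the 58 measured cytosolic ribosomal protein genes, 0 passed in DEL minus SUPM2 (median -0.13), and in Karpas299 minus SUPM2 0 were higher and only RPL10 was lower (-1.58, adjusted p = 0.0139; median -0.11). NPM1, nucleophosmin, another abundant nucleolar protein, was at 0.01 ± 0.18 in DEL minus SUPM2 (adjusted p = 0.985) and at -0.19 ± 0.18 in Karpas299 minus SUPM2 (adjusted p = 0.619).

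MYC itself had 10.37 in SP and 10.54 in MP cells of DEL, 10.46 and 9.40 in SP and MP cells of Karpas299, and 8.15 and 8.0 in SP and MP cells of SUPM2. All 4 DEL and Karpas299 arrays lay above SUPM2, by 2.38 ± 0.33 in DEL (adjusted p = 0.0259) and by 1.85 ± 0.33 in Karpas299 (adjusted p = 0.0373). MXD1, which pairs with MAX in place of MYC, was lower in Karpas299 than in SUPM2 (-1.91 ± 0.30, adjusted p = 0.0298) and at -0.56 ± 0.30 in DEL minus SUPM2 (adjusted p = 0.369). Of the other 9 measured genes of the MYC network, MGA was lower in Karpas299 than in SUPM2 (-1.86, adjusted p = 0.0342), and 0 passed in DEL minus SUPM2. Genes of the set with CACGTG in their promoter window had a median of 1.29 in DEL minus SUPM2 (n = 12), against 1.27 for those with a window and no match (n = 17). In Karpas299 minus SUPM2 these medians were 1.14 and 1.03. The 15 measured genes of the G2/M phase, a measure of cycling, averaged 8.46 and 8.14 in SP and MP cells of DEL, 9.15 and 8.65 in SP and MP cells of Karpas299, and 8.46 and 7.44 in SP and MP cells of SUPM2. Their median was 0.09 in DEL minus SUPM2 (2 higher past the threshold) and 1.10 in Karpas299 minus SUPM2 (4 higher), and their part in the differences of the ribosome biogenesis set was not tested.

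The second comparison set SUDHL-1 against the mean of the other 3 lines. On centred values 30 of the 36 genes were higher in SUDHL-1 and 0 lower (all genes: 34.6% higher and 19.6% lower), with 34 of 36 values above 0 and a median of 1.38. Higher levels in SUDHL-1 were common beyond the set: of the genes with a mean signal at or above its lowest, 45.5% were called higher, and the median was 0.34 over these and 0.13 over all genes. The SUDHL-1 arrays had the lower medians, and line and processing cannot be told apart here. In 19 of the 36 genes all 6 SUDHL-1 arrays lay above the other 6 arrays (18.9% of all genes), and in 0 below (9.24% of all genes). All 6 Pol I genes, all 3 box C/D genes and all 4 scaffold and helicase genes were called higher, with 3 of 4 H/ACA genes, 7 of 10 small-subunit and 7 of 9 large-subunit factors. The calls of TCOF1, a Pol I factor, and BOP1 were lost on other scales: TCOF1 was at 0.54 after centring (adjusted p = 0.00316), 0.23 after quantile normalization (adjusted p = 0.0831) and 0.08 as deposited (adjusted p = 0.549), and BOP1 at 0.58 (adjusted p = 0.00882), 0.30 (adjusted p = 0.133) and 0.12 (adjusted p = 0.497), which leaves 5 of 6 Pol I genes and 6 of 9 large-subunit factors called higher on either of these scales. Of the 13 ALCL and T-lineage markers, 4 were higher and 8 lower in SUDHL-1 on centred values (median -0.62), with CD4 at -3.58 and CD2 at -2.0, and of the 28 markers of other cell types 2 were higher and 7 lower. Their part in the result was not tested.

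The values with the smallest p were those of FBL, TSR1, LYAR, NIP7, GAR1, DDX10, DKC1 and DDX21. LYAR had centred levels from 3.72 to 4.68 (median 4.42) on the SUDHL-1 arrays, against -0.31 to 2.62 (median 2.06) elsewhere, a difference of 2.90 ± 0.18 (adjusted p = 4.95e-07). NIP7 had 5.0 to 6.03 (median 5.80) in SUDHL-1, against 2.09 to 3.66 (median 3.40) elsewhere, a difference of 2.66 ± 0.16 (adjusted p = 5.49e-07). Neither gene had any overlap between SUDHL-1 and the other lines. FBL had 7.12 to 7.31 (median 7.22) in SUDHL-1, against 4.99 to 5.73 (median 5.43) elsewhere, a difference of 1.80 ± 0.09 (adjusted p = 1.98e-07). DDX10, a helicase of small-subunit processing, had 3.29 to 3.98 (median 3.76) in SUDHL-1, against 0.47 to 1.94 (median 1.11) elsewhere (2.58 ± 0.16, adjusted p = 6.16e-07). GAR1 had 4.58 to 5.20 (median 4.90) in SUDHL-1, against 2.05 to 3.10 (median 2.64) elsewhere (2.25 ± 0.14, adjusted p = 5.73e-07). FBL, GAR1 and DDX10, none of which passed between DEL, Karpas299 and SUPM2, had no overlap between SUDHL-1 and these 3 lines. POLR1C, which did not pass there either and had 8.10 to 8.22 on those 6 arrays as deposited, had centred levels of 3.72 to 4.44 (median 4.26) in SUDHL-1, against 2.30 to 2.45 (median 2.35) elsewhere (1.79 ± 0.14, adjusted p = 3.11e-06). TSR1 was at 2.33 ± 0.14 (adjusted p = 4.25e-07), DKC1 at 1.98 ± 0.13 (adjusted p = 7.01e-07) and DDX21 at 1.81 ± 0.12 (adjusted p = 7.27e-07). The 6 genes that did not pass were NHP2 (-0.07), RRP12 (0.04), IMP3 (0.31), NOB1 (-0.13), PES1 (0.23) and RRS1 (0.05), an assembly factor of the large subunit.

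**Figure D3:**
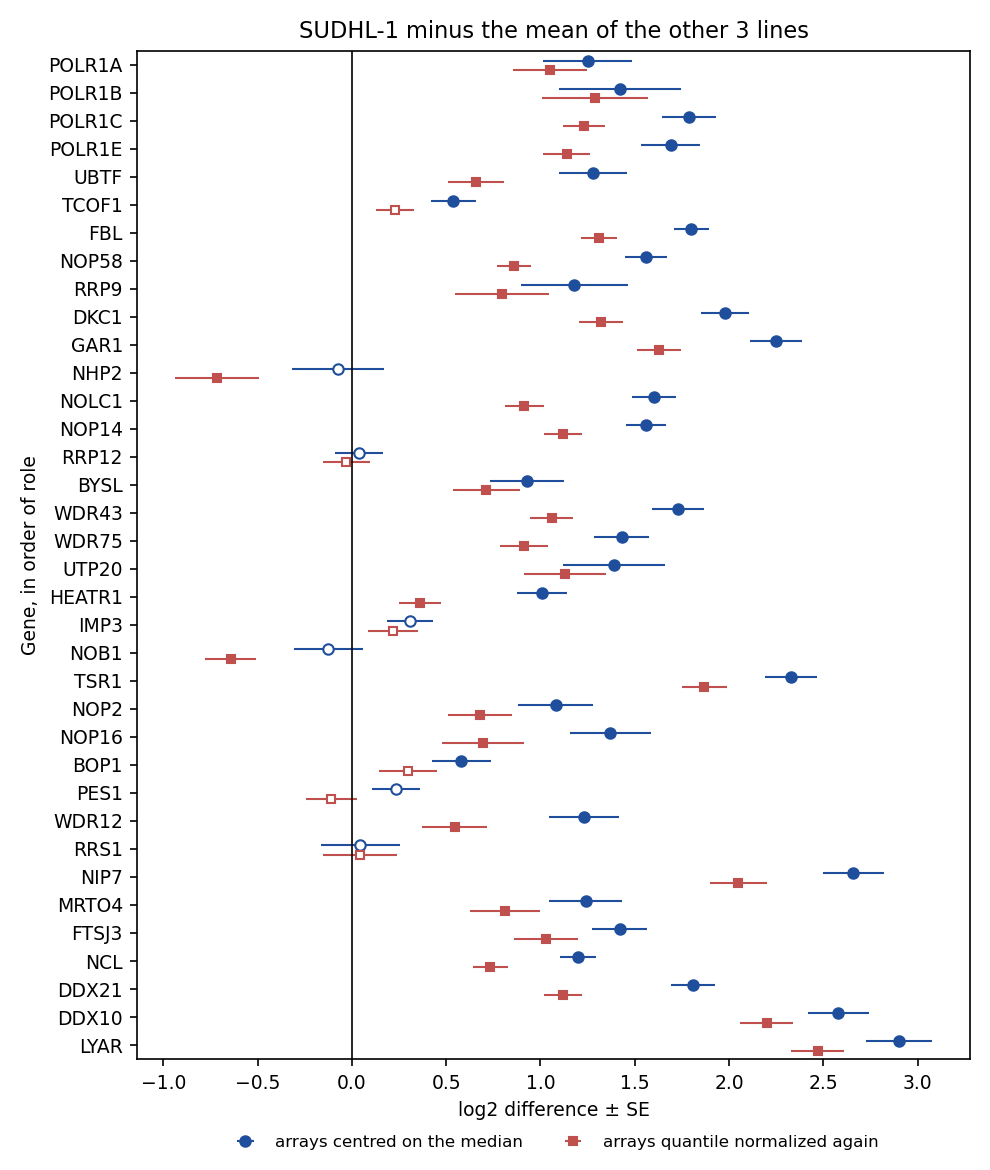
Log2 difference (horizontal axis, limma estimate ± SE) of each of the 36 genes between SUDHL-1 (6 arrays) and the mean of DEL, Karpas299 and SUPM2 (2 arrays each), in order of role. Blue circles are values after centring of each array, red squares after a second quantile normalization, and filled points have an adjusted p under 0.05; the red points lie to the left of the blue ones for most genes, NHP2 and NOB1 being filled below 0 on the red scale only.

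The scale matters for the size of this difference. After quantile normalization of the 12 arrays the median of the set was 0.89 (all genes 0.01), with 28 genes higher (all genes 26.0%, and 33.7% of those in the signal range of the set) and NHP2 and NOB1 lower (all genes 25%). As deposited it was 0.92 (all genes -0.33), with 28 higher (all genes 16.4%) and NOB1 and RRP12 lower (all genes 49.2%). The 134 other ribosome biogenesis genes had a median of 1.23 after centring (105 higher, 8 lower) and of 0.76 after quantile normalization (90 higher, 17 lower). The ribosomal protein genes depended on the scale: after centring 43 of 58 were higher and 4 lower (median 0.47), and after quantile normalization 14 were higher and 17 lower (median 0.01). So did MYC, which had 9.49, 9.59 and 9.81 in SP and 9.40, 9.49 and 9.91 in MP cells of SUDHL-1 as deposited: its difference from the other lines was 0.59 ± 0.16 after centring (adjusted p = 0.0106), -0.08 after quantile normalization (adjusted p = 0.727) and 0.13 as deposited (adjusted p = 0.508).

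The third comparison asked whether SP cells differ from MP cells, in SUDHL-1 and across the lines. No gene of the set passed the test: the count was 0 of 36 in SUDHL-1, where 0.0% of all genes passed. In SUDHL-1, 16 genes had a higher and 20 a lower mean in SP, with a median of -0.036 (all genes -0.00024) and values from -0.56 for NOB1 to 0.28 for POLR1A. At an unadjusted p under 0.05, limma called 0 of the 36 and 577 of all genes. NOB1 had 7.62, 8.37 and 7.46 in SP cells and 8.24, 8.26 and 8.63 in MP cells, and 1 SP array lay among the MP arrays (-0.56 ± 0.26, adjusted p = 1.0). POLR1A had 7.89, 8.07 and 7.17 in SP cells and 6.87, 7.47 and 7.94 in MP cells, and its groups overlapped (0.28 ± 0.33, adjusted p = 1.0). UBTF had 9.79, 9.63 and 8.75 in SP cells and 9.71, 9.46 and 9.82 in MP cells (-0.27 ± 0.28, adjusted p = 1.0). In 0 of the 36 genes did the SP and MP arrays separate, in either direction (3.74% of all genes above, 3.42% below). FBL was at 0.01 ± 0.13, NOP58 at -0.03 ± 0.16, DKC1 at -0.09 ± 0.14 and NCL at -0.07 ± 0.14 between the populations of SUDHL-1. UTP20 was at -0.20 ± 0.40, PES1 at -0.07 ± 0.17 and BOP1 at 0.13 ± 0.23.

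The third SP replicate of SUDHL-1 had the lowest mean of the set among the 6 arrays (8.71, with 9.0 to 9.25 on the other 5), and without it the median difference was 0.08. On the same arrays all 15 G2/M genes had higher means in SP cells (median 0.68), as did all 13 histone genes (median 1.32), and 49.9% of all genes. Of these 2 lists 0 genes passed the adjusted threshold. At an unadjusted p under 0.05 limma called 8 and 11 of them, and 577 of all 18417 genes. Genes of a list were measured on the same 6 arrays and are not separate observations.

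Across the 4 lines, limma on 1 SP minus MP difference a line called 0 of 36 genes (0.0% of all genes), with 14 means above 0, 22 below and a median of -0.019. At an unadjusted p under 0.05 it called 1 of the set and 904 of all genes. In DEL 31 of 36 genes had a lower value in SP than in MP cells (86.1%, against 47.3% of all genes; median -0.32), while in Karpas299 25 were higher (69.4%, against 49.2%; median 0.12), in SUPM2 21 were higher (58.3%, against 57.8%; median 0.067) and in SUDHL-1 20 were lower (55.6%, against 50.1%). The mean of the 4 line medians was -0.040 ± 0.20 (SD, n = 4 lines). In DEL, RRP9 showed the largest gap, 7.43 in SP and 8.42 in MP cells, and BYSL, a small-subunit factor, stood out the other way, with 7.58 in SP and 6.80 in MP cells. In SUPM2 single values ran from -1.26 for NOP16 to 1.33 for NHP2, the widest range of the 4 lines. With 1 array of each population in DEL, Karpas299 and SUPM2, these differences have no replicate check within a line.

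IMP3 was the 1 gene with a higher value in SP in all 4 lines (2.78% of the set, against 8.09% of all genes): 0.07 in SUDHL-1, then 0.22 in DEL, 0.13 in Karpas299 and 0.53 for SUPM2. TSR1 and FTSJ3, an rRNA methyltransferase, had lower values in all 4 lines (5.56%, against 5.66% of all genes). TSR1 differed by -0.06 in SUDHL-1, by -0.60 in both DEL and SUPM2 and by -0.13 in Karpas299 (mean -0.35 ± 0.14 (SE), adjusted p = 0.918), the 1 gene of the set with an unadjusted p under 0.05. FTSJ3 had the same mean, -0.35 ± 0.20, and most of it came from SUPM2 (-1.07). The difference between the SP minus MP value of SUDHL-1 and that of the other 3 lines, tested as an interaction, passed in 0 of 36 genes (0.0% of all genes), with a median of -0.12, and at an unadjusted p under 0.05 in 0 of the set and 661 of all genes. Its values ran from -0.48 for NOB1 to 0.48 for POLR1A.

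**Figure D4:**
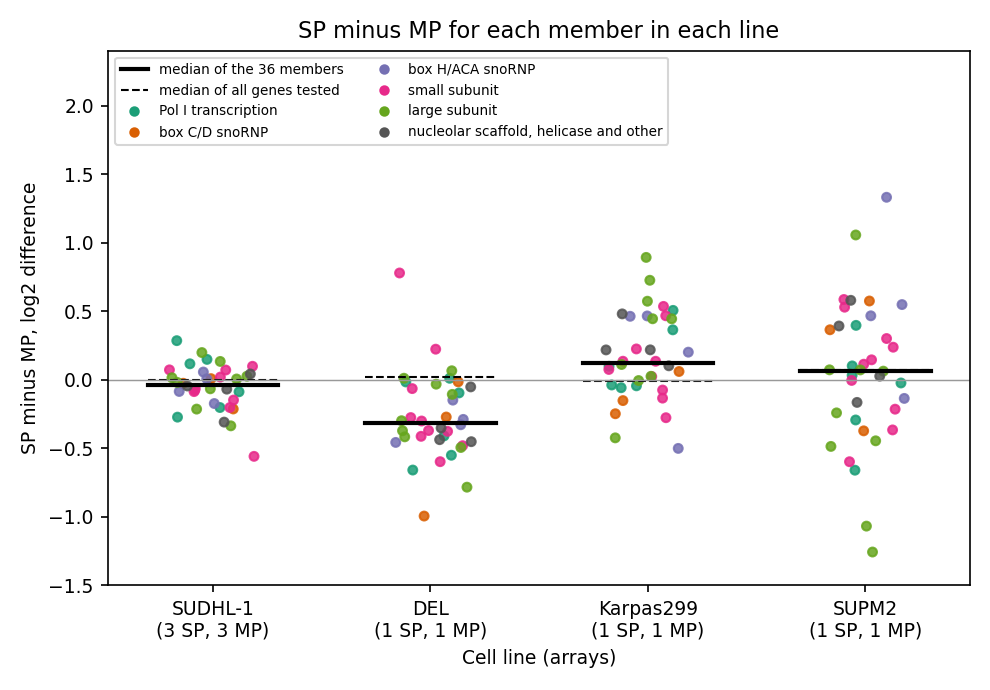
SP minus MP log2 difference (vertical axis) of each of the 36 genes in each line, with the number of SP and MP arrays under the line's name and colours for the roles. Solid bars mark the median of the 36 genes (-0.036 for SUDHL-1, -0.32 for DEL, 0.12 for Karpas299 and 0.067 for SUPM2) and dashed bars that of all genes; points scatter most in SUPM2 and least in SUDHL-1, whose points are means of 3 arrays a population.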

How the data were processed

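The authors deposited log2 signals of a whole-transcript Affymetrix array. The submitters' processing notes name RMA, without a version, as the tool; RMA corrects background, quantile normalizes and summarises probes. The sources used here do not state if all 12 arrays went through RMA at once. All 12 columns were used, 0 left out. Per the labels' protocols, RNA was amplified with a kit for picogram amounts. Arrays carry no read depth, so the number of arrays limits precision.

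Of 33297 probe sets, 19460 had 1 symbol in the platform annotation and 1754 several, which named no gene; 19429 matched a RefSeq gene by Entrez identifier. For the 769 genes with several probe sets the one with the highest mean was used, leaving 18417. Fits used limma 3.58.1 (lmFit, eBayes; R 4.3.3), two-sided, with Benjamini-Hochberg adjustment over all 18417 genes and a threshold of 0.05: SP minus MP on the 6 SUDHL-1 arrays; 1 difference a line over 4 lines; the interaction with SUDHL-1; line with population as covariate on the 6 arrays of DEL, Karpas299 and SUPM2 (2 residual degrees of freedom); and SUDHL-1 against the mean of the others on arrays centred on the median of genes tested. The code was tested on simulated data.

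The genes named with values were those always listed per role, then the 8 of smallest p that passed each way (the 5 of smallest p each way if under 3 passed), up to 4 per other list, and MYC; other genes were named after their values were seen. Members and lists were chosen with earlier results of these data known. Alternatives changed the low-signal filter, normalization, centring, probe set choice, variance model, arrays and lines.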

Additional observations from a re-analysis of the deposited data

Results flagged for a closer look

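BOP1, a large-subunit assembly factor of the PeBoW complex, had an SP minus MP log2 difference of -0.49 in SUPM2, apart from 0.13 in SUDHL-1, 0.07 in DEL and 0.11 in Karpas299. The gap from SUPM2 to the nearest of the other lines was 0.89 of the whole range of the 4 values, past Dixon's critical value for a group of 4. The test was made on 37 results, and chance flags about 1 in 20. The SUPM2 value rests on 1 array of each population, and the probe sets of BOP1 disagreed in the sign of DEL minus SUPM2.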

How the results depend on the processing

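SP minus MP gave 0 calls in the set under every alternative run, in SUDHL-1, over the 4 lines and in the interaction. The median of SP minus MP was -0.14 to 0.08 in SUDHL-1 when 1 array was left out and 0.03 without both arrays numbered 3 (chosen after seeing the data); over the 4 lines it was -0.034 to 0.0073 and in the interaction -0.24 to 0.05. With the replicate block the SUDHL-1 median stayed at -0.036 with 0 calls; deviations of same-numbered arrays correlated at -0.004, -0.08 and -0.13, with 0 of 3 SP arrays correlating best with the MP array of its own number. The labels do not say what the numbers mark, and they were not taken as pairs. Among DEL, Karpas299 and SUPM2, leaving out 1 array gave 3 to 9 calls by the F-test, 0 to 9 in DEL minus SUPM2 (median 1.03 to 1.41), 0 to 9 in Karpas299 minus SUPM2 (median 0.85 to 1.25) and 0 in DEL minus Karpas299 (median -0.037 to 0.33); a line then has 1 array, assumed to vary like the others, and fewer residual degrees of freedom. With either SUPM2 array left out, F-test calls over all genes fell by a smaller share than those in the set. With either Karpas299 array left out, they fell by a larger share than those in the set. With all 12 arrays in the fit, calls in the set were 24 by the F-test, 23 in DEL minus SUPM2, 19 in Karpas299 minus SUPM2 and 4 in DEL minus Karpas299. In the same order, calls over all genes were 2459, 1536, 1971 and 958, against 1382, 869, 1255 and 444 in the fit of 6 arrays. The other alternatives gave 13 to 17 calls in DEL minus SUPM2 and 11 to 16 in Karpas299 minus SUPM2. For SUDHL-1 against the other lines, the median was 0.89 after quantile normalization and 0.92 without centring, each with 2 genes lower, 1.62 without DEL and 0.90 without SUPM2, and leaving out 1 SUDHL-1 array gave 30 or 31 genes higher, 0 lower and a median of 1.24 to 1.44. With SP arrays only, 23 genes were higher (19.6% of all genes), and with MP arrays only 26 (21.1% of all genes), against 34.6% of all genes with all arrays. The causes of these shifts were not tested.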

Other observations

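MXD1, which pairs with MAX in place of MYC, separated the SUDHL-1 arrays numbered 3 from the others: it had 6.89, 6.92 and 8.55 in the 3 SP arrays and 6.88, 6.25 and 8.15 in the 3 MP arrays. The same 2 arrays had the lowest means of the set within their populations, 8.71 in SP and 9.0 in MP cells. The MP value lay close to the 9.03 and 9.15 of the other MP arrays. MYC was also highest on these 2 arrays within their populations, at 9.81 in SP and 9.91 in MP cells, with 9.40 to 9.59 on the others. A link between these genes and the set was not tested. MXD4, of the same family, was lower in SUDHL-1 than in the mean of the other lines (-1.64 ± 0.19 on centred values, adjusted p = 4.33e-05), with 4.92 to 5.27 as deposited on the 6 SUDHL-1 arrays and 6.64 to 8.15 on the other 6. MLX, a partner of the MXD proteins, was higher there (2.16, adjusted p = 4.8e-07). After centring, all 13 measured genes of the rRNA exosome had values above 0 in SUDHL-1 minus the other lines (59.8% of all genes), 11 of them called higher (34.6% of all genes), EXOSC7 with the smallest p (2.93, adjusted p = 8.01e-08). After quantile normalization 12 were above 0 and 8 were called higher (26.0% of all genes), and as deposited 10 were called higher (16.4% of all genes) and EXOSC4 lower (-0.46, adjusted p = 0.0384).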
